A study of Mus musculus with 48 samples.

Results

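Young epidermal stem cells at ZT12 were compared with young epidermal stem cells at ZT0, that is, cells taken at lights off with cells taken at lights on, 12 h apart. All cells came from the epidermis of wild-type female C57B6/J mice, and the young mice were 8 weeks old. The comparison uses 8 of the 48 arrays in the series, 4 at ZT12 and 4 at ZT0, each from 1 mouse. The arrays were picked by the age and the time in the sample titles. The comparison itself and the gene lists were chosen with earlier results of these data known. ZT is Zeitgeber time, with ZT0 by convention at lights on. The other young arrays, 4 at each of ZT4, ZT8, ZT16 and ZT20, entered the model for its estimate of spread and give the rest of the day. Aged mice of 102 to 116 weeks, of the same strain and sex, gave 4 arrays at ZT12 and 4 at ZT0 for 1 comparison near the end. How the stem cells were isolated, the light schedule and the dates of harvest and hybridisation were not stated in the labels.

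The circadian clock is a feedback loop of transcription factors. The activators CLOCK or NPAS2, paired with BMAL1 (gene Arntl), bind E-box sequences and switch on their own repressors, the period, cryptochrome and REV-ERB proteins, as well as output factors such as DBP and TEF, which act through D-box sequences. In the epidermis the clock is known to time DNA replication and division of basal cells within the day, and adrenal glucocorticoids, which in mice are highest near lights off, carry a further daily signal to the skin.

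RNA was measured on 1-colour Affymetrix arrays, and values are log2 RMA probe set summaries, so a difference of 1 is a doubling. Of 17097 genes with a probe set of their own, 12823 passed the filter on dim genes. The 8 array medians lay between 4.78 and 4.88, and each array correlated with the others of its group at 0.978 to 0.991, lowest in ZT0 replicates 2 and 3. Those 2 arrays also had the lowest array weights of the 8 (0.294 and 0.472), a measure of how closely an array follows its group mean. The 3' minus 5' signals of actin lay between -0.24 and -0.13 at ZT12 and between -0.28 and -0.17 at ZT0, and those of Gapdh between -0.16 and 0.08 at ZT12 and between -0.19 and -0.08 at ZT0. The basal keratinocyte markers were bright in every array, with a list mean of 11.68 to 11.79 at ZT12 and 11.64 to 11.71 at ZT0, and Krt15 reached 12.23 at ZT12 and 12.18 at ZT0. The list mean of upper follicle and sebaceous gland markers did not overlap between the times (9.55 to 9.89 at ZT12, 9.32 to 9.41 at ZT0). Those of fibroblast, endothelium, T cell, and Langerhans and myeloid cell markers overlapped. At ZT12 they were 5.71 to 5.84 for 4 fibroblast markers, 4.32 to 4.49 for 3 of endothelium, 5.09 to 5.39 for 6 of T cells and 6.35 to 6.84 for 5 of Langerhans and myeloid cells. At ZT0 they were 5.78 to 5.85 for fibroblasts, 4.37 to 4.6 for endothelium, 5.08 to 5.37 for T cells and 5.79 to 6.89 for Langerhans and myeloid cells. Within them levels were uneven. Col1a2, Dcn, Tie1 and Cd3e stayed at or under 4.58 in all 8 arrays, where the filter on dim genes lay at 3.96, while Sparc reached 10.25 at ZT12 and 10.35 at ZT0, Thy1 9.79 at ZT12 and 9.71 at ZT0, and H2-Aa 7.80 at ZT12 and 7.90 at ZT0. The part of these cells in the results was not tested.

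At ZT12, 191 genes were higher than at ZT0 (1.49% of those tested) and 214 were lower (1.67%), by limma's moderated test with a Benjamini-Hochberg adjusted p under 0.05. The clock repressors and output factors, glucocorticoid-induced genes and genes that load and fire DNA replication origins were among the rises. Mitosis genes were among the falls. The median change over all tested genes was -0.01. Of the 191 rises, 170 had all 4 ZT12 values above all 4 ZT0 values, where 3.12% of all genes did. Of the 214 falls, 183 had them all below, where 3.82% of all genes did. Most changes were modest: the median size was 0.70 for rises and 0.64 for falls, and 35 rises and 25 falls reached 2-fold. Within the young day, 133 of the rises had their highest mean at ZT12 and 41 at ZT16, and 146 of the falls had their highest at ZT0. Since the genes were called for a difference between ZT12 and ZT0, the choice itself favours peaks at these times. Rises made up 47.2% of the calls here, 67.4% with arrays centred on their medians (317 higher, 153 lower), 59.2% with cyclic loess (284 and 196) and 24.7% with cell type scores as covariates (101 and 308). Without both ZT0 arrays of low weight, which leaves 2 mice at ZT0, 108 genes were higher and 88 lower, of which 101 and 78 were also called with them. Without ZT0 replicate 2 alone 159 were higher and 318 lower, and without ZT0 replicate 3 alone 229 and 131. The count of falls was 105 without ZT12 replicate 4 and 136 without ZT0 replicate 4. Using the 8 arrays alone to estimate the spread left 80 higher and 61 lower.

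The largest rises were in clock genes, Dbp and Per3. Dbp, a transcription factor and a direct output of the clock, had 7.99, 8.61, 8.38 and 8.02 at ZT12, against 4.74, 4.13, 4.75 and 4.46 at ZT0. The groups lay more than 3 log2 units apart, and the fitted rise was 3.73 ± 0.20 (SE, n = 4 mice per time; limma adjusted p = 8.37e-12), or 13.3-fold. Tef, a related factor that binds the same D-box, had 9.70, 9.34, 9.59 and 9.54 at ZT12, against 7.57, 7.39, 7.53 and 7.36 at ZT0, a rise of 2.08 ± 0.12 with little spread at either time. Hlf, the remaining activator of that family, rose by 0.66 ± 0.14 (limma adjusted p = 0.0094). Nfil3, which binds D-boxes as a repressor, had a change of -0.27 with overlapping groups and did not pass (limma adjusted p = 0.28). So 3 of the 4 D-box factors rose and none fell.

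Among the repressors, 6 of 8 tested genes rose and none fell, with a median change of 1.03. Per3 had 8.78, 8.32, 9.02 and 8.74 at ZT12, against 4.92, 6.07, 5.18 and 5.53 at ZT0, a rise of 3.29 ± 0.32 (limma adjusted p = 3.63e-07). Per2, whose protein is needed for the repressor complex, had 7.62, 7.46, 7.48 and 7.41 at ZT12, against 5.66, 5.34, 5.44 and 5.62 at ZT0. Its groups were tight and far apart, with a rise of 1.98 ± 0.16. Per1, the third period gene, which also responds directly to glucocorticoids, had 10.16, 9.88, 10.11 and 10.19 at ZT12, against 9.56, 9.65, 8.94 and 9.27 at ZT0, a smaller rise of 0.73 ± 0.16 (limma adjusted p = 0.0083).

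Nr1d2 encodes REV-ERB beta, a nuclear receptor that represses Arntl and Npas2. It had 9.40, 9.09, 9.43 and 9.40 at ZT12, against 7.96, 7.76, 7.38 and 7.13 at ZT0, a rise of 1.77 ± 0.16, although its highest mean of the day was at ZT8. Ciart, a repressor that binds BMAL1, had 6.84, 6.97, 7.0 and 6.78 at ZT12, against 5.75, 5.28, 5.55 and 5.67 at ZT0, a rise of 1.33 ± 0.14. The cryptochromes, partners of the period proteins, did not move together. Cry2 rose by 0.61 ± 0.13 (limma adjusted p = 0.0072), while Cry1 was lower in all 4 ZT12 mice, 5.41 to 6.25 against 6.41 to 7.04 at ZT0, and did not pass at a change of -0.70 (limma adjusted p = 0.14). Bhlhe40, a repressor that competes for E-boxes, had a change of 0.21 and did not pass.

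On the activator side, Npas2 fell. It had 6.21, 6.50, 6.71 and 6.63 at ZT12, against 7.61, 8.07, 7.56 and 7.62 at ZT0, with no overlap and a change of -1.20 ± 0.12 (limma adjusted p = 4.69e-07). A second Npas2 probe set, not used for the test because it is dimmer on average, had a change of -3.14. Arntl had 7.77, 7.16, 8.48 and 7.26 at ZT12, against 8.84, 8.90, 7.34 and 8.52 at ZT0. The groups overlapped through ZT12 replicate 3 and ZT0 replicate 3, and the change of -0.73 ± 0.33 did not pass (limma adjusted p = 0.29). The other Arntl probe set had a change of -1.64, and with the mean of its probe sets Arntl was called lower, at -1.19 (limma adjusted p = 0.0042). Clock was lower in all 4 ZT12 mice, at a change of -0.58, and did not pass (limma adjusted p = 0.11). Rora, which activates Arntl, did not differ beyond its spread, with a change of 0.13 (95% interval -0.14 to 0.39).

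**Figure D1:**
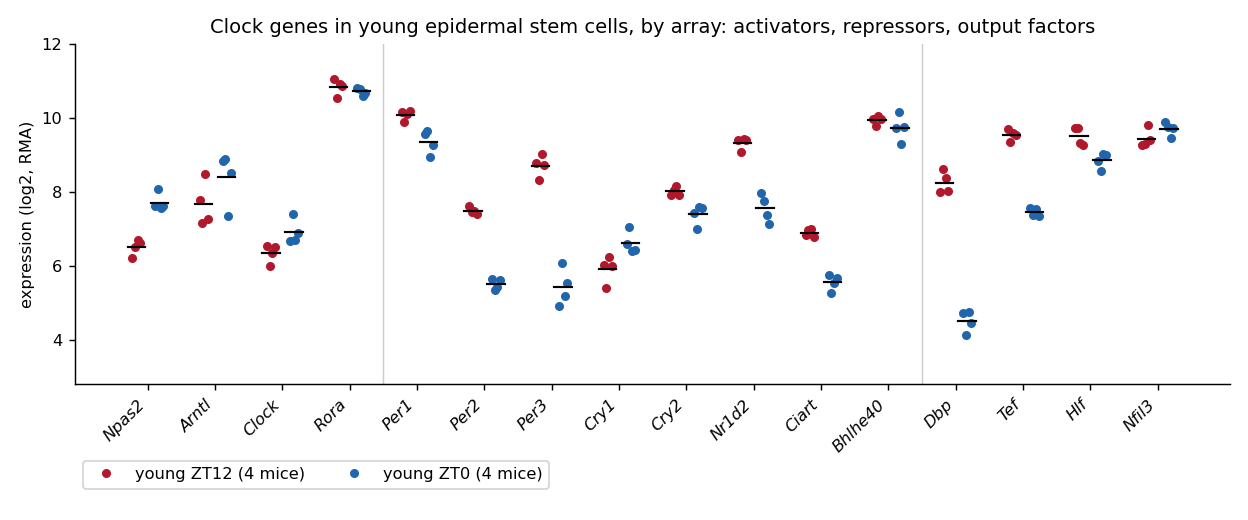
Expression of the 16 tested clock genes (log2 RMA, vertical axis) in each of 4 young mice at ZT12 (red, left) and 4 at ZT0 (blue, right), with group means as black bars. Dbp, Tef, Per2, Per3, Nr1d2 and Ciart stand clear above their ZT0 values, and Npas2 clear below.

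The promoters of these genes were read to see where the clock's own sequences lie in genes that moved. The RefSeq windows (GRCm38.p6) cover 250 bases before to 50 after each gene start, and 10258 of the 12823 tested genes have at least 1, which gives 13009 windows. Ciart and Per3 are shown because they hold the most copies of an E-box and of a D-box among the clock genes that rose. In Ciart (chr3:95882179-95882478, minus strand) capitals mark the E-box CACGTG, which starts 116, 58 and 44 bases before the gene start. In Per3 (chr4:151044616-151044915, minus strand) capitals mark the D-box TTATGTAA, at 205 and 158 bases before the start.
Ciart: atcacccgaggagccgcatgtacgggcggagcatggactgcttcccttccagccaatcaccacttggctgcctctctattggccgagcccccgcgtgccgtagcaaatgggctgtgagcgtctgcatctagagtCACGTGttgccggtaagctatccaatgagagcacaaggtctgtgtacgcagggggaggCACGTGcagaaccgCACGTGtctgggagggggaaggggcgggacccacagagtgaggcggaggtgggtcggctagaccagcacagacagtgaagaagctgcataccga
Per3: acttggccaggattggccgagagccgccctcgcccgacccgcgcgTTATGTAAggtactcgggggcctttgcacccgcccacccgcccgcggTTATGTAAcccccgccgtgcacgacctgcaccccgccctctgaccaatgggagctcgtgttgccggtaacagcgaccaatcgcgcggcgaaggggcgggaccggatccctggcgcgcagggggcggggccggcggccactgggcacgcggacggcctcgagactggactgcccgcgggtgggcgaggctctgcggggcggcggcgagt

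The E-box was searched as CACGTG and the D-box as TTATGTAA or TTACGTAA, on both strands. An E-box was present in 4 of the 10 windows of the clock genes that rose, those of Ciart, Per1 and Tef, and in 9.56% of the windows of all tested genes. Over all genes that rose it was in 29 of 190 windows (15.3%), and over those that fell in 16 of 232 (6.9%). The D-box was in 4 of 190 and 3 of 232 windows, against 0.669% of all. TAGGTCA, the element read by REV-ERB and ROR, was in 2 of 190 and 8 of 232 windows, against 1.97% of all. Dbp, Nr1d2 and Hlf had windows with none of these letters.

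Of 14 glucocorticoid-induced genes tested, 5 rose at ZT12, none fell and 9 did not pass, with a median change of 0.30. Fkbp5, a chaperone of the glucocorticoid receptor and one of its most responsive targets, had 9.39, 8.55, 8.61 and 8.94 at ZT12, against 5.84, 6.16, 6.44 and 5.70 at ZT0. All ZT12 mice were more than 2 log2 units above all ZT0 mice, and the rise was 2.84 ± 0.20, or 7.15-fold (limma adjusted p = 9.88e-10). Tsc22d3, which encodes the anti-inflammatory protein GILZ, had 10.38, 9.72, 9.74 and 10.08 at ZT12, against 7.93, 8.20, 8.53 and 8.57 at ZT0, a rise of 1.67 ± 0.23. Zbtb16, a transcriptional repressor, had 10.62, 9.78, 10.45 and 10.21 at ZT12, against 9.26, 9.65, 9.13 and 9.35 at ZT0, a rise of 0.92 ± 0.18. Klf9, which represses proliferation of human keratinocytes and is the smallest of the 5, rose by 0.51 ± 0.13 (limma adjusted p = 0.021), and Per1 completes the count. Sgk1, a kinase that glucocorticoids induce in many tissues, did not pass, at 0.27. Fkbp5, Tsc22d3 and Zbtb16 had their highest mean at ZT16. The count was 3 of 14 with the 8 arrays alone and also 3 without the low-weight ZT0 arrays.

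Fuel-use genes included 2 rises among 8. Pdk4 encodes a kinase that inhibits pyruvate dehydrogenase and is induced by fasting. It had 5.86, 5.75, 6.51 and 6.38 at ZT12, against 4.68, 4.88, 4.98 and 4.69 at ZT0, a rise of 1.32 ± 0.25 (limma adjusted p = 0.0020). Txnip, a brake on glucose uptake, had 12.04, 11.88, 11.77 and 11.92 at ZT12, against 10.92, 10.93, 11.30 and 11.28 at ZT0, a rise of 0.79 ± 0.13. Neither gene's groups overlapped. The fatty acid oxidation genes Cpt1a and Acaa2 had changes of 0.34 and 0.35 and did not pass. None of 27 oxidative phosphorylation subunits and none of 12 glycolytic enzymes passed. Changes lay between -0.10 and 0.21 for the first list and between -0.27 and 0.39 for the second. By limma, 0 and 2 of them had an unadjusted p under 0.05, where 1817 of all 12823 tested genes did.

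**Figure D2:**
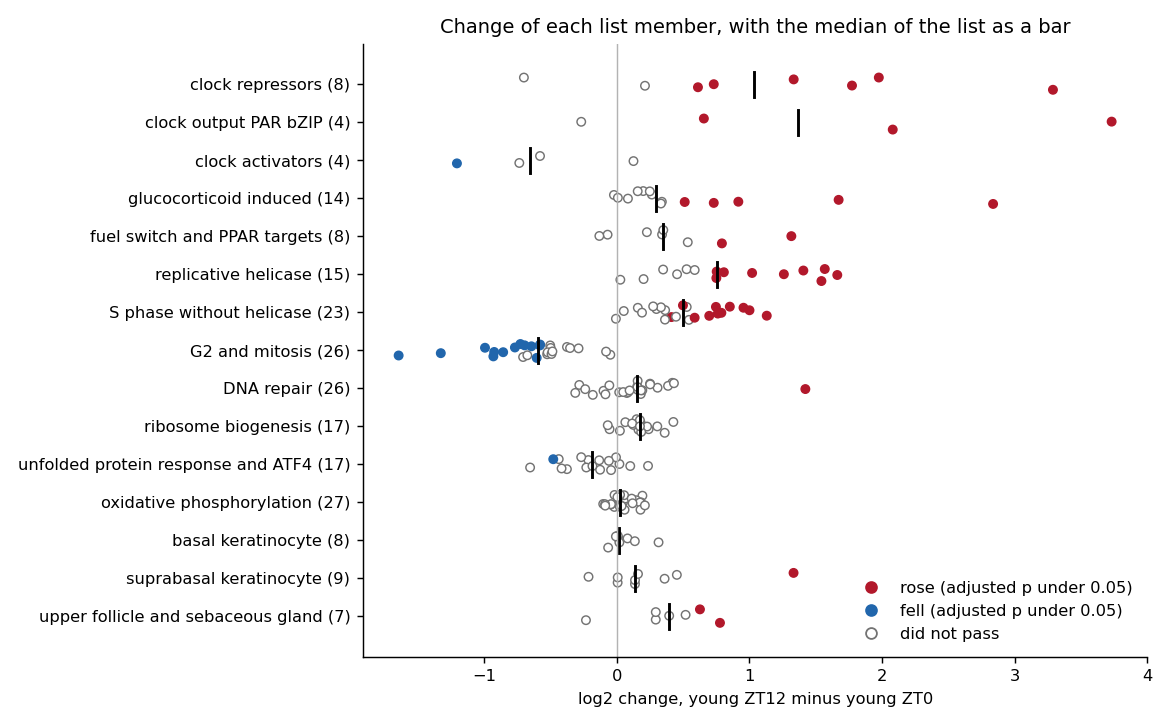
Log2 change of each tested member, young ZT12 minus young ZT0 (horizontal axis), for 15 lists with the number of members in brackets; red points rose, blue points fell, open points did not pass, and the black bar is the list median. All 15 helicase genes and 22 of the 23 other S phase genes lie to the right of 0, and all 26 genes of G2 and mitosis to the left.

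Among the cell cycle lists, only rises were called in the 2 replication lists and only falls in the G2 and mitosis list. Of 15 genes of the replicative helicase and its loading, 9 rose and none fell, with a median change of 0.75 and all 15 above 0. Mcm2, a subunit of the MCM ring that unwinds DNA, had 8.95, 8.97, 8.64 and 8.57 at ZT12, against 7.13, 6.44, 7.68 and 7.22 at ZT0, a rise of 1.66 ± 0.20 (limma adjusted p = 8.5e-06). The subunit Mcm5 had 10.56, 10.27, 10.07 and 9.98 at ZT12, against 8.64, 8.01, 9.17 and 8.79 at ZT0, a rise of 1.57 ± 0.18. Mcm3 had 9.05, 9.01, 8.53 and 8.61 at ZT12, against 7.27, 6.54, 7.76 and 7.45 at ZT0, a rise of 1.54 ± 0.17. In all 3 genes ZT0 replicate 2 was the lowest array and ZT0 replicate 3 the highest of the ZT0 group. Gins2, a subunit of the GINS complex that activates the ring, rose by 1.41 ± 0.16. The rest of the ring rose as well, Mcm6 by 1.02, Mcm4 by 0.81 and Mcm7 by 0.75, as did Gins1 by 1.26 and the loading factor Cdt1 by 0.75. The mean of the list lay between 7.30 and 7.70 in ZT12 mice and between 6.29 and 6.91 in ZT0 mice.

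Of 23 further S phase genes, 11 rose and none fell, with a median change of 0.50. Lig1, the ligase that joins Okazaki fragments, had 9.80, 9.46, 9.49 and 9.34 at ZT12, against 8.47, 7.82, 8.80 and 8.46 at ZT0, a rise of 1.13 ± 0.15 (limma adjusted p = 4.31e-05). Chaf1b, a subunit of the factor that places histones on new DNA, rose by 1.00 ± 0.14, the primase subunit Prim1 by 0.70 ± 0.13 and E2f1, a transcription factor that drives S phase genes, by 0.59 ± 0.10. The list was uneven, since Pcna, the sliding clamp, changed by 0.16 and Rrm2, which makes deoxynucleotides and peaks in S phase, by -0.01, and neither passed. Outside the lists, Timeless, which protects replication forks, had 7.28, 6.66, 6.44 and 6.08 at ZT12, against 4.92, 4.66, 5.63 and 5.45 at ZT0, a rise of 1.45 ± 0.23. Ung, which removes uracil from DNA, rose by 1.42 ± 0.18 and was the only 1 of 26 DNA repair genes to pass. Mthfd1l, a mitochondrial enzyme of folate metabolism, rose by 1.51 ± 0.15 and was the only 1 of 11 folate and serine genes to pass. Of those 11 genes, 10 had a change above 0, with a median of 0.29. By limma 6 were higher at an unadjusted p under 0.05, where 749 of all 12823 genes were. The S phase count ranged from 6 to 14 as single arrays were left out (6 without ZT12 replicate 1, 7 without ZT12 replicate 4) and was 4 with the 8 arrays alone.

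Of 26 genes of G2 and mitosis, 13 fell and none rose. All 26 had a change below 0, with a median of -0.59, where 6715 of 12823 genes were below 0. Cenpf, a kinetochore protein made in G2, had 6.82, 5.68, 6.07 and 6.55 at ZT12, against 7.65, 7.82, 8.26 and 7.97 at ZT0, a change of -1.64 ± 0.25 (limma adjusted p = 0.00018). Ccnb2, a mitotic cyclin, had 5.42, 4.90, 4.93 and 5.20 at ZT12, against 6.08, 5.68, 6.53 and 6.14 at ZT0, a change of -0.99 ± 0.20. Ube2c, the ubiquitin-conjugating enzyme that works with the anaphase-promoting complex, fell by 0.92 and Prc1, which bundles the spindle midzone, by 0.60, neither with overlap. Nusap1, a spindle protein, had the second largest fall of the list, -1.33, and the kinase Plk1 fell by 0.58. Mki67 and Top2a, common markers of dividing cells, had changes of -0.48 and -0.52 and did not pass. Another 3 of the largest falls outside the list are also genes of cytokinesis and the spindle: Ect2, which starts furrowing, fell by 1.37, Aspm, at the spindle poles, by 1.21 and Gas2l3, which links actin to microtubules, by 1.32. The mean of the list lay between 6.16 and 6.66 at ZT12 and between 6.63 and 7.54 at ZT0, so the groups overlapped slightly. The count of falls was 6 without ZT12 replicate 4, 8 without ZT12 replicate 3, 6 without ZT0 replicate 3, 8 without ZT0 replicate 4, 6 without both low-weight ZT0 arrays and 2 with the 8 arrays alone. In bulk RNA, fewer cells in a phase of the cycle and less of its RNA per cell cannot be told apart.

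Promoters of these lists were searched for 2 further motifs, chosen after the values were seen. The E2F motif, bound by the E2F factors of S phase, was searched as TTTCCCGC, TTTGGCGC, TTTCGCGC or TTTGCCGC, and the CHR, an element of G2 and mitosis promoters, as TTTGAA, on both strands. Mcm3 (chr1:20820263-20820562, minus strand) and Mcm6 (chr1:128359656-128359955, minus strand) are shown for the helicase list, with E2F motifs in capitals. Those of Mcm3 lie 20 and 39 bases after the start. Mcm6 has 3, of which 2 overlap in the run that begins 110 bases before the start, and another at 47 bases before it. Ccnb2 (chr9:70421505-70421804, minus strand) and Plk1 (chr7:122159185-122159484, plus strand) are shown for the mitosis list, with the CHR in capitals.
Mcm3: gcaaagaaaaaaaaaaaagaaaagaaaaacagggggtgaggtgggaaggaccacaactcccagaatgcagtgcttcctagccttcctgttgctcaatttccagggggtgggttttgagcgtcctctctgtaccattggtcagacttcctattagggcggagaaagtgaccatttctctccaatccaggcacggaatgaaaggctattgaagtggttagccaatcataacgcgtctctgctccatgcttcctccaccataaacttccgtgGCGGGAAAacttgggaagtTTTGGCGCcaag
Mcm6: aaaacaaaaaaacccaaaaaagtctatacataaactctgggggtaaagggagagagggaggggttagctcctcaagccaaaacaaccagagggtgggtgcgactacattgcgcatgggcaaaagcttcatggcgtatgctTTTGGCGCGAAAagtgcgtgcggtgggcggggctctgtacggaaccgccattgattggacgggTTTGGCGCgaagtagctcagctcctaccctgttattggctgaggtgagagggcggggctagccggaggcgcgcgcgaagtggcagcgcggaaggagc
Ccnb2: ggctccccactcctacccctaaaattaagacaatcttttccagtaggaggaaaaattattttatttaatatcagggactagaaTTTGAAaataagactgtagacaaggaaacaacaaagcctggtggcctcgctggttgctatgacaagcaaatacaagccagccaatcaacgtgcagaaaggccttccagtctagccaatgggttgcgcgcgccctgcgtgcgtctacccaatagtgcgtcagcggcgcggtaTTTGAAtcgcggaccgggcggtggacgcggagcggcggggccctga
Plk1: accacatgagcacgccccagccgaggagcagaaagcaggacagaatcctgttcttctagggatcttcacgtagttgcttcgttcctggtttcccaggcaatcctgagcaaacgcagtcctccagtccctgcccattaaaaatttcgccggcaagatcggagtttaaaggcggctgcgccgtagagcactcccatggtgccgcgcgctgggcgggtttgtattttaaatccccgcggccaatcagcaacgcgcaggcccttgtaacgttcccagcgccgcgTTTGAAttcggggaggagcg

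In Ccnb2 a CHR begins 5 bases after the gene start, with another 167 bases before it, and in Plk1 it begins 31 bases after the start. The E2F motif was present in 8 of 12 windows of the helicase list, 6 of 26 of the other S phase list and 1 of 22 of the G2 and mitosis list, against 3.65% of the windows of all tested genes. The CHR was in 3 of 12, 2 of 26 and 18 of 22 windows, against 12.2% of all. A match is only a description of the sequence. Gins2 and Per2 had no entry.

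The largest rise outside these groups was Krt6a, a keratin of the hair follicle that is also made in wounded or stressed epidermis. It had 9.49, 8.68, 7.74 and 9.14 at ZT12, against 6.84, 6.75, 6.69 and 6.18 at ZT0, a rise of 2.14 ± 0.33 (limma adjusted p = 0.00021). Its ZT12 values were widely spread, and its mean at ZT16 was back at 7.0. Among suprabasal markers 1 of 9 rose, Tgm3, a transglutaminase of the cornified layer and hair shaft, with 8.84, 8.69, 8.53 and 8.66 at ZT12, against 6.90, 6.83, 8.28 and 7.37 at ZT0, a rise of 1.33 ± 0.22. Among 7 markers of upper follicle and sebaceous gland, Mgst1, a glutathione transferase, rose by 0.78 ± 0.20 and Gata6, a transcription factor of the follicle junction, by 0.63 ± 0.17. These calls were not firm, since Mgst1 passed in 10 and Gata6 in 8 of 20 alternative analyses (limma adjusted p up to 0.54 and 0.66). The mean of that list was 9.55 to 9.89 at ZT12 and 9.32 to 9.41 at ZT0, without overlap. Of its 7 markers 6 had a change above 0. The remaining 1, at -0.23, was lower in all 4 ZT12 mice and had an unadjusted p under 0.05 by limma. The suprabasal list mean was 9.82 to 10.10 at ZT12 and 9.29 to 9.89 at ZT0, with overlap. With the scores of these lists and of the fibroblast, endothelium and Langerhans cell lists as covariates, 86 of the 191 rises and 120 of the 214 falls were still called.

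Other rises were spread thinly over the lists. Gsta4, which detoxifies lipid peroxides, rose by 1.09 ± 0.16 and Sod2, the mitochondrial superoxide dismutase, by 0.48 ± 0.10, which makes 2 of 15 antioxidant genes. Sesn1, a stress-induced inhibitor of growth signalling, rose by 0.77 ± 0.15 (1 of 13 p53 targets). Bmp7, a ligand of the BMP pathway, had 7.68, 7.84, 7.75 and 7.99 at ZT12, against 6.87, 7.01, 7.32 and 7.11 at ZT0, a rise of 0.74 ± 0.13 (1 of 16 TGF-beta and BMP genes). Postn, a matrix protein on the bulge list, rose by 0.74 ± 0.18 (1 of 8) and passed in 13 of 20 alternative analyses. The bulge list did not rise as a whole. Of its 8 members 5 had a change below 0, with a list median of -0.02, and Col6a1, at -0.47, did not pass. Changes below 0 were also the more frequent among p53 targets (8 of 13) and TGF-beta and BMP genes (11 of 16).

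**Figure D3:**
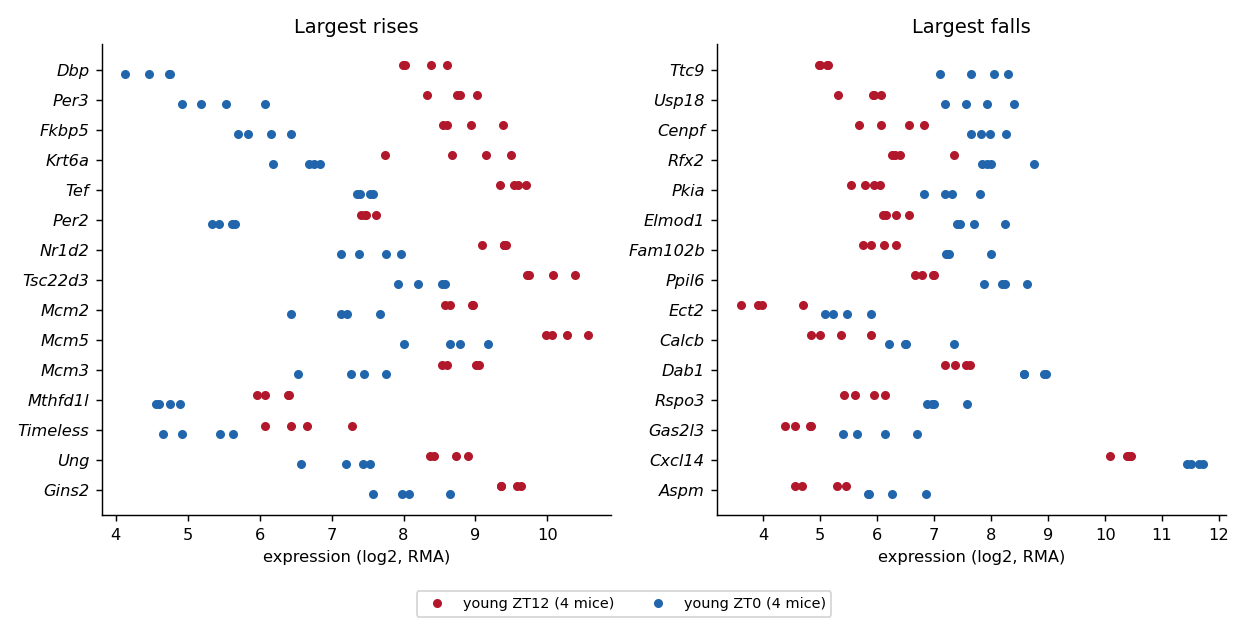
Expression (log2 RMA, horizontal axis) of the 15 largest rises (left panel) and 15 largest falls (right panel) whose groups did not overlap, 1 gene per row, in 4 young mice at ZT12 (red, upper points) and 4 at ZT0 (blue, lower points). Dbp has the widest gap among the rises and Ttc9 among the falls, and Rfx2 and Fam102b each have 1 mouse apart from its group.

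The largest fall was that of Ttc9, a tetratricopeptide repeat protein. It had 5.0, 5.11, 4.97 and 5.13 at ZT12, against 7.65, 7.10, 8.29 and 8.04 at ZT0, a 6.58-fold difference with no overlap and a change of -2.72 ± 0.17 (limma adjusted p = 1.43e-10). Usp18, a protease that removes ISG15 and damps interferon signalling, had 5.94, 6.07, 5.31 and 5.93 at ZT12, against 7.55, 7.19, 8.40 and 7.93 at ZT0, a change of -1.96 ± 0.22. It was the only 1 of 7 interferon-stimulated genes to pass, and Oasl2, Rsad2 and Ifit3 had changes of 0.49, 0.23 and 0.18. Those genes were dim, with ZT0 means of 4.92, 4.65 and 4.38, where the filter on dim genes lay at 3.96. A fall as large as that of Usp18 would have taken them under that limit. That limit is a filter setting and not the lowest value read, since Ect2 had 3.60 in ZT12 replicate 2. The 95% intervals were -0.06 to 1.03 for Oasl2, -0.07 to 0.53 for Rsad2 and -0.07 to 0.42 for Ifit3. So no fall like that of Usp18 was seen in these 3 genes. All 6 other members of the list had a change above 0. Whether their low signal hid a small fall was not tested. Cxcl14, a chemokine made by the epidermis, was bright at both times, with 10.46, 10.42, 10.39 and 10.09 at ZT12, against 11.5, 11.44, 11.64 and 11.72 at ZT0, a change of -1.24 ± 0.13.

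The other large falls had varied roles. Dab1, an adaptor of reelin signalling, fell by 1.32 on the log2 scale, with 7.19 to 7.63 at ZT12 and 8.57 to 8.97 at ZT0. Rspo3, which strengthens Wnt signals, fell by 1.32, and Wnt3, a Wnt ligand, had 7.55, 7.93, 7.77 and 7.69 at ZT12, against 8.36, 8.32, 8.52 and 8.51 at ZT0, a change of -0.69 ± 0.12 that made it the only 1 of 15 Wnt genes to pass. Pkia, an inhibitor of protein kinase A, fell by 1.45, Calcb, which encodes a calcitonin gene-related peptide, by 1.36 and Elmod1, a GTPase-activating protein, by 1.41. Rfx2, a transcription factor of ciliated cells, had 6.31, 6.25, 6.39 and 7.34 at ZT12, against 8.00, 7.92, 8.75 and 7.84 at ZT0, a change of -1.55 ± 0.25. Fam102b fell by 1.40 and Ppil6 by 1.37. The lowest young mean of Pkia, Calcb and Elmod1 was at ZT12. That of Rfx2 and Fam102b was at ZT4, that of Dab1, Rspo3 and Wnt3 at ZT16 and that of Ppil6 at ZT20. Ppil6 had means of 8.23 at ZT0, 8.13 at ZT4, 6.83 at ZT8, 6.86 at ZT12, 8.52 at ZT16 and 6.51 at ZT20.

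Protein folding genes gave 2 falls. Hsph1, a large heat shock protein, fell by 0.57 ± 0.13 (1 of 9 chaperones). Creld2, a secreted protein induced by stress in the endoplasmic reticulum, fell by 0.48 ± 0.13 (limma adjusted p = 0.048; 1 of 17 genes of the unfolded protein response) and passed in 7 of 20 alternative analyses. The mean of that list was 8.93 to 9.01 at ZT12 and 9.09 to 9.32 at ZT0, without overlap, with a median change of -0.18. Xbp1, the transcription factor of this response, was lower in all 4 ZT12 mice at a change of -0.65 and did not pass (limma adjusted p = 0.064). By limma no member of the autophagy, ribosome biogenesis, cholesterol, immediate early, basement membrane or Notch lists passed, and 1, 3, 0, 0, 2 and 2 of their members had an unadjusted p under 0.05. Over all tested genes 1817 of 12823 did. In the ribosome biogenesis list 15 of 17 members had a change above 0, with a median of 0.18, and those 3 were all higher at ZT12. In aged cells 3 members of that list rose. No basal keratinocyte marker, and none of the fibroblast, endothelium, Langerhans, T cell, melanocyte, muscle or red blood cell lists, passed either, with 1 basal, 1 fibroblast and 1 endothelial marker at an unadjusted p under 0.05 by limma.

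**Figure D4:**
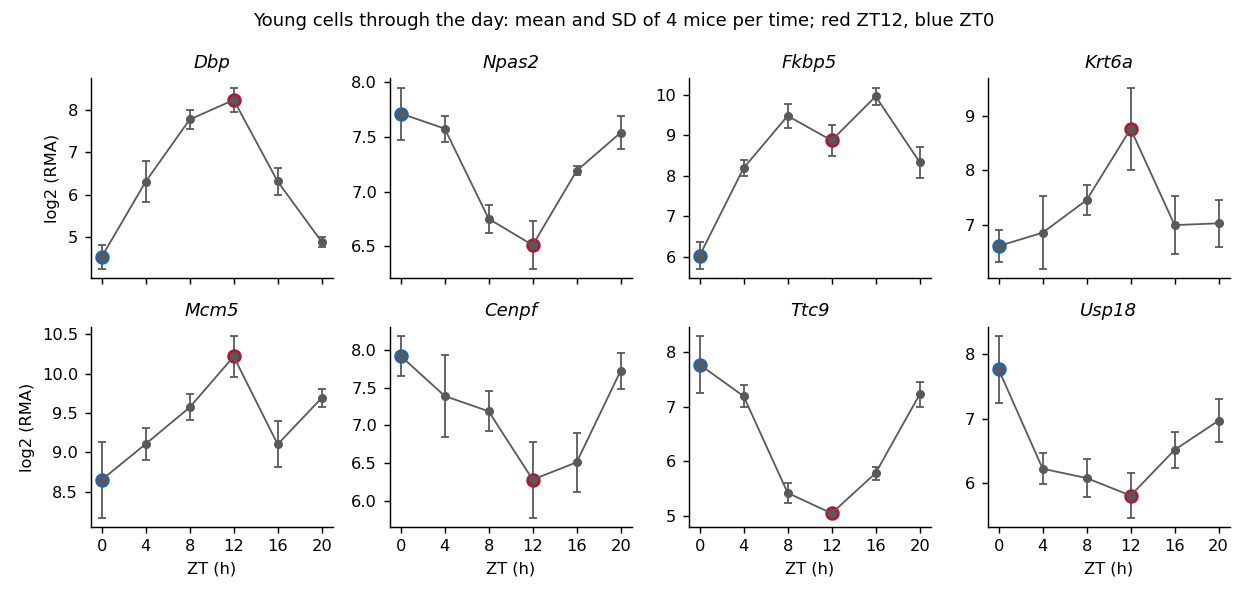
Mean and SD of 4 young mice at each of 6 times (ZT in h, horizontal axis; log2 RMA, vertical axis, scaled per gene) for 8 genes, with ZT12 in red and ZT0 in blue. Dbp and Krt6a are highest at ZT12, Fkbp5 at ZT16, and Npas2, Cenpf, Ttc9 and Usp18 are highest at ZT0.

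The other young times place the pair within the day. Ttc9 had means of 7.77 at ZT0, 7.19 at ZT4, 5.43 at ZT8, 5.05 at ZT12, 5.79 at ZT16 and 7.23 at ZT20, a smooth trough around ZT12. Usp18 was already at 6.23 by ZT4 and had its lowest mean, 5.81, at ZT12. Fkbp5 had 6.04 at ZT0, 8.20 at ZT4, 9.48 at ZT8, 8.87 at ZT12, 9.96 at ZT16 and 8.34 at ZT20, so ZT0 stood apart from every other time. Mcm5 had 8.65 at ZT0, its peak of 10.22 at ZT12, 9.10 at ZT16 and 9.69 at ZT20.

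The same pair of times was measured in aged mice, on separate arrays. There, 147 genes were higher at ZT12 (1.15%) and 101 lower (0.788%). These aged calls came from the fit to all 48 arrays, and the young calls from the fit to the 24 young arrays. Of the 191 young rises, 163 (85.3%) also had a change above 0 in aged cells, where 50.9% of all tested genes did, and 52 were called, which is 27.2% of the young and 35.4% of the aged rises. Of the 214 young falls, 165 (77.1%) had a change below 0 in aged cells, against 49.1% of all, and 21 were called, 9.8% of the young and 20.8% of the aged falls. None was called in the opposite direction. No clock gene passed the test of the difference (limma adjusted p of 0.41 to 0.94 over the 16), with Dbp at 3.73 in young and 3.60 in aged cells, Tef at 2.08 and 2.01 and Nr1d2 at 1.77 and 1.65. Others lay further apart. Per2 changed by 1.98 in young and 1.38 in aged cells (unadjusted limma p of the difference 0.050), Per3 by 3.29 in young and 4.00 in aged (0.16), Cry1 by -0.70 in young and 0.07 in aged (0.035) and Bhlhe40 by 0.21 in young and -0.23 in aged (0.043). In the helicase list 9 young and 11 aged members rose, with median changes of 0.75 and 0.97. In the G2 and mitosis list 13 young and 5 aged members fell, while the median changes were close, at -0.59 and -0.50. In neither list did a member pass the test of the difference between the ages.

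Several large young changes were not called in aged cells, but a test of young against aged change did not pass. In the glucocorticoid list 5 members rose in young and 0 of 14 in aged cells. Fkbp5 changed by 2.84 in young and by 0.92 in aged cells, and the difference of 1.91 did not pass (limma adjusted p = 0.18). Krt6a changed by 2.14 and 0.14 (limma adjusted p of the difference = 0.18), Usp18 by -1.96 and -0.52 (0.20) and Pdk4 by 1.32 and -0.03 (0.31).

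The ZT12 minus ZT0 change differed between young and aged cells for 10 genes (0.078% of those tested; limma, adjusted p under 0.05). The 5 with the smallest p were Wipf3, Frmd4a, Elmod1, Zfp12 and Fst. Wipf3, which binds the actin regulator WASP, had 7.03, 7.06, 7.26 and 6.90 at ZT12, against 8.08, 7.85, 7.91 and 7.93 at ZT0 in young mice, and 6.96, 7.64, 7.03 and 7.44 at ZT12, against 7.08, 7.02, 6.62 and 6.99 at ZT0 in aged mice. The young groups did not overlap and the aged ones did, and the changes of -0.88 and 0.34 differed by -1.22 (limma adjusted p = 0.0070). Frmd4a, a scaffold of epithelial polarity, changed by -0.99 and 0.06 in those ages (adjusted p = 0.012). Elmod1 changed by -1.41 and -0.11 (adjusted p = 0.016), and the zinc finger gene Zfp12 by -0.52 and 0.19 (adjusted p = 0.016). Fst, which encodes follistatin, a secreted inhibitor of activin, changed by 0.44 in young cells, which did not pass, and by -0.85 in aged cells (adjusted p of the difference = 0.016).

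The number of such genes depended on single mice. It was 167 without aged ZT12 replicate 1 and 90 without aged ZT0 replicate 4. It was 2, 3, 5 and 2 without aged ZT12 replicates 2 and 4 and aged ZT0 replicates 1 and 3, and 4, 16, 6, 5 and 6 without young ZT12 replicates 2, 3 and 4 and young ZT0 replicates 3 and 4. It was 1 without both low-weight young ZT0 arrays, and by limma 0 with only the ZT12 and ZT0 arrays (933 with an unadjusted p under 0.05). Among the 10, Wipf3 passed in 25 of 26 alternatives and Frmd4a in 24, and Cc2d2a in 9.

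**Figure D5:**
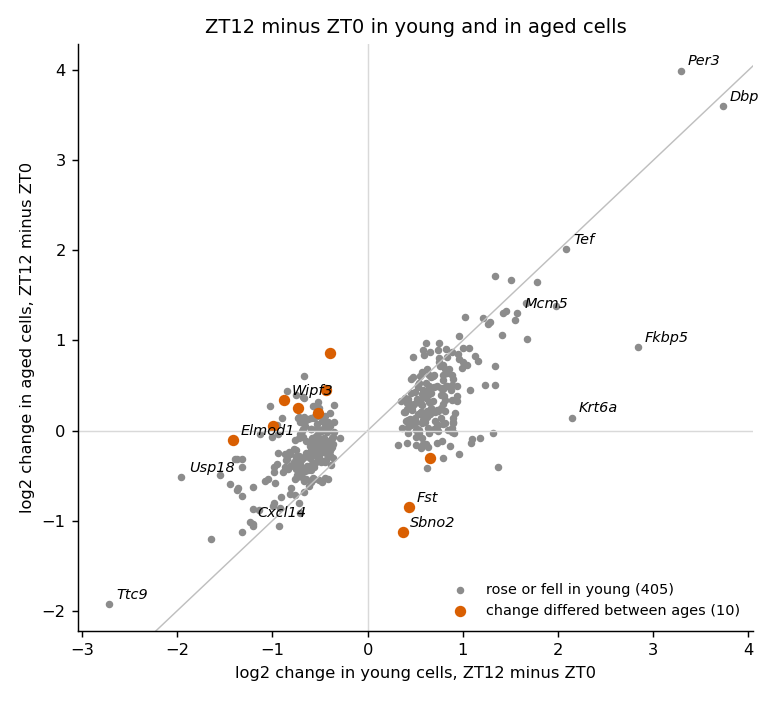
Log2 change, ZT12 minus ZT0, in young cells (horizontal axis) and in aged cells (vertical axis), 1 point per gene, for the 405 genes that rose or fell in young cells (grey) and the 10 whose change differed between the ages (orange); the diagonal marks equal changes. Dbp and Tef lie near the diagonal, Per3 above it, and Fkbp5, Krt6a and Usp18 nearer the line of no change in aged cells.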

How the data were processed

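The authors deposited log2 probe set values made with RMA, per the submitters' processing notes; whether all arrays were normalised together is not given in the sources used here. Per the labels' protocols, 25 ng of TRizol-extracted RNA was amplified with WTA2 in 17 cycles. Of 45141 probe sets, 28898 carry 1 gene symbol, 551 several and 15692 none here. Each gene took its probe set of highest mean, and the lowest 25% of genes (mean log2 under 3.96) were left out. limma 3.58.1 (R 4.3.3) fitted a mean per time to the 24 young arrays; the difference between ages used all 48. P values were adjusted over 12823 genes. The fit was tested on simulated data. The comparison and the 37 lists (489 genes, 403 tested) were chosen with earlier results of these data known. Named are all clock genes, the 15 largest rises and falls without overlap, up to 4 members per list and the 5 smallest p of the age difference; other names (Klf9, Sgk1, Mcm4, Mcm6, Mcm7, Gins1, Cdt1, Pcna, Rrm2, Nusap1, Plk1, Mki67, Top2a and Cc2d2a among them) were picked after their values were seen. Clone names and predicted genes were skipped. Same-numbered mice at ZT12 and ZT0 had residual correlations of -0.457 to -0.177, so numbers were not taken as pairs. Precision rests on 4 mice per group.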

Additional observations from a re-analysis of the deposited data

Results flagged for a closer look

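In 6 of 132 groups of 4 mice examined, 1 mouse stood apart from its group by Dixon's test at the 95% level, where chance alone gives about 6.6. Npas2 was 8.07 in ZT0 replicate 2, with the others at 7.56 to 7.62, and Creld2 was 8.89 in the same mouse, with the others at 9.5 to 9.56. Nr1d2 was 9.09 in ZT12 replicate 2, with the others at 9.40 to 9.43. Rfx2 was 7.34 in ZT12 replicate 4, with the others at 6.25 to 6.39. Fam102b and Rspo3 were both highest in ZT0 replicate 3, Fam102b at 8.00 with the others at 7.20 to 7.26 and Rspo3 at 7.57 with the others at 6.87 to 6.99.

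The ZT12 minus ZT0 change differed between young and aged cells in 10 genes by limma's test of the difference, all adjusted p under 0.05. The young change was lower in Wipf3 by -1.22 (young -0.88, aged 0.34), Frmd4a by -1.05 (young -0.99, aged 0.06), Elmod1 by -1.31 (young -1.41, aged -0.11), Zfp12 by -0.71 (young -0.52, aged 0.19), Spsb3 by -0.89 (young -0.44, aged 0.45) and Cc2d2a by -0.99 (young -0.74, aged 0.26). Ppp1r10 also had the lower young change, by -1.26 (young -0.39, aged 0.86). In Fst the young change was higher by 1.29 (young 0.44, aged -0.85), in Sbno2 by 1.5 (young 0.37, aged -1.13) and in Aqp3 by 0.96 (young 0.65, aged -0.31). The adjusted p ran from 0.0070 for Wipf3 to 0.040 for Cc2d2a. Ppp1r10, Sbno2, Spsb3, Aqp3 and Cc2d2a were chosen after their values were seen. Aged ZT0 replicate 4 stands with the ZT12 mice in Sbno2, at 7.48 against 8.67, 9.21 and 9.08 in the other aged ZT0 mice.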

How the results depend on the processing

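The 191 rises and 214 falls became 317 rises with arrays centred on their medians, 101 rises with the cell mixture covariates, 346 falls with array weights and 121 falls at a change of at least 1.5 times. With only the ZT12 and ZT0 arrays to estimate the spread there were 80 and 61, and without both low-weight ZT0 arrays (a setting added once the data had been seen) 108 and 88. With 1 array left out the rises ranged from 139 to 229 and the falls from 105 to 318 (105 without ZT12 replicate 4, 131 and 136 without ZT0 replicates 3 and 4), and 110 rises and 81 falls were called each time. The 10 genes that differed between the ages became 35 with median centring, 16 with cyclic loess, 45 with array weights, 1 without both low-weight arrays and, by limma, 0 with only the ZT12 and ZT0 arrays (933 at an unadjusted p under 0.05), with 2 to 167 as 1 array was left out.

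Of the lists, the glucocorticoid count was 3 with only the ZT12 and ZT0 arrays and also 3 without both low-weight arrays, the S phase count 4 with only those arrays, and the G2 and mitosis count 2 and 6. With 1 array left out, 6 to 6 clock repressors, 3 to 3 D-box factors, 4 to 5 glucocorticoid genes, 9 to 11 helicase genes and 6 to 14 S phase genes rose, and 6 to 16 mitosis genes fell. The replicate block, with the mouse number shared between times, gave 176 rises, 180 falls and 11 differences between the ages; the numbers share no stated animal, litter or day, and same-numbered mice had a mean residual correlation of -0.348 (0.117 for other pairs). Of 1316 values of 66 single genes under 20 settings, 1241 stayed on their side of the threshold, 72 lost and 3 gained the call, and none changed sign while called. The causes were not tested.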

Other observations

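The genes named here are on no list and were chosen after their values were seen, so how many of their kind did not pass was not counted; each passed limma's test over all genes. Single genes of replication and the cell cycle rose at ZT12: Wdhd1, a replisome scaffold, by 1.28, Chek1, the checkpoint kinase of S phase, by 1.21, Dtl, which directs the loading factor CDT1 to destruction, by 0.84, the polymerase subunits Pole2 and Pola2 by 0.74 and 0.57, and the D cyclins Ccnd2 and Ccnd1 by 0.67 and 0.46. Ccnd2 had 11.66, 11.57, 11.56 and 11.57 at ZT12, against 10.65 to 11.04 at ZT0. Single genes of mitosis fell: Knl1 of the kinetochore by 1.14, Anln of the contractile ring by 1.04, Racgap1, the partner of Ect2, by 0.84, and separase, Espl1, by 0.77. Nfya and Nfyb, subunits of a factor that binds many mitosis promoters, fell by 0.46 and 0.45.

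Other single genes fell or rose, chosen the same way. Ift80 and Ift122 of intraflagellar transport fell by 0.97 and 0.49, Kif3a, a motor subunit, by 0.76, Bbs2 by 0.47, Iqcb1 by 0.52 and Cc2d2a of the transition zone by 0.74. Bbs2 had 7.31 to 7.43 at ZT12 and 7.67 to 8.06 at ZT0. The alcohol dehydrogenases Adh1 and Adh7 rose by 1.16 and 0.62, the dehydrogenases Sdr16c5 and Aldh3a1 by 0.90 and 0.57, the cytochrome Cyp2b10 by 0.90 and the retinol carrier Rbp2 by 0.73. Aldh3a1 had 11.29 to 11.35 at ZT12 and 10.58 to 10.95 at ZT0. In aged cells Cyp2b10 and Rbp2 changed by 0.09 and 0.05, and neither passed there.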
